A study of Mus musculus with 4 samples.

Results

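The SLC25 genes are a family of nuclear genes that encode mitochondrial carriers, the transport proteins of the inner mitochondrial membrane. Members were taken by name, as every protein-coding gene called Slc25a followed by a number in the mutant table that also stood in the wild-type table. There were 39 such genes among the 13478 genes listed in both tables, of which 11260 were protein-coding. A further 2 names, Slc25a2 and Slc25a35, were listed in the mutant table alone, at inputs of 0.202 and 0.462 FPKM, and the gene annotated as member 34 was listed in the wild-type table alone, at an input of 0.201 FPKM.

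The genes were measured by RNA immunoprecipitation and sequencing (RIP-seq) in mouse pancreatic cancer-associated fibroblasts (CAFs, labelled 15376CAFs) that overexpressed Flag-tagged Lin28b. There were 4 libraries: the anti-Flag IP (WT IP) and the input (WT input) of cells with wild-type Lin28b (Lin28b-WT), and the IP (MU IP) and the input (MU input) of cells with a mutant that is deficient in RNA binding (Lin28b-MU), which served as the control. All cells therefore carried a Flag-tagged Lin28b, and the labels name neither a promoter for it nor the substitutions of the mutant. Each group was 1 library, so the differences given here have neither a replicate check nor a test, and every value describes these libraries.

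Mitochondrial carriers share a fold of repeated membrane-spanning segments and exchange metabolites, nucleotides, cofactors and ions between the cytosol and the mitochondrial matrix. Their mRNAs are translated in the cytosol and the proteins enter the inner membrane through the TIM22 translocase. Lin28b is an RNA-binding protein with a cold-shock domain and zinc knuckles. It blocks the maturation of let-7 microRNAs and also binds large numbers of mRNAs, and mRNAs of mitochondrial metabolism have been described among the targets of the Lin28 proteins.

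Levels are given in FPKM, a length-scaled level, and a ratio is log2 of (IP + 0.01) over (input + 0.01) within a construct. The number of reads behind each level is unknown. Of 13 fibroblast markers, 6 were listed in both tables, with summed input levels of 820 FPKM with Lin28b-WT and 708 with Lin28b-MU. Most of that was Vim, with Fn1 at 118 FPKM in the WT input and 74.6 in the MU input, and Sparc at 93.8 and 83.8. Col1a1 stood at 0.722 and 0.404 FPKM in the same inputs, Pdgfra at 1.33 and 0.860, and Acta2 at 0.227 and 0.524. Col1a2, Col3a1, Pdgfrb, Dcn, Lum, Fap and Thy1 were not listed in both tables. Of 7 epithelial markers, 5 were listed in both, with summed input levels of 1912 and 1374 FPKM. Krt8 stood at 601 FPKM in the WT input and 494 in the MU input, Krt18 at 395 and 441, and Krt19 at 665 and 322. Cdh1 stood at 219 and 114 FPKM in the same inputs, and Krt7 at 31.7 and 3.32. Epcam and Cldn4 were not listed in both tables. Of 3 leukocyte markers 1 was listed in both tables and of 2 endothelial markers 0 were, and the part of these cell identities in the carrier values was not tested.

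The carriers did not move as a block, and their ratios ran over a wide range in both constructs. In the WT IP, 6 of the 39 genes (15.4%) were at least 2-fold above the input, against 7.74% of all genes in both tables, and 10 (25.6%) were at least 2-fold below, against 21.7%. In the MU IP, 2 (5.13%) were at least 2-fold above the input, against 5.99% of all genes, and 16 (41.0%) at least 2-fold below, against 37.1%. Among protein-coding genes the corresponding shares were 6.85% above and 18.8% below with Lin28b-WT, and 5.71% above and 32.5% below with Lin28b-MU. With a q-value under 0.05 in the authors' deposited table required as well, the counts of carriers were the same, and the shares of all genes were 7.03% above and 20.4% below with Lin28b-WT and 5.48% above and 35.8% below with Lin28b-MU. The median ratio of the carriers was −0.24 with Lin28b-WT and −0.69 with Lin28b-MU, close to the medians over all genes, −0.28 (WT) and −0.59 (MU).

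The genes at least 2-fold above input with Lin28b-WT were Slc25a40, Slc25a17, Slc25a36, Slc25a46, Slc25a5 and Slc25a21. Slc25a21 was listed at 0 in the WT input, and without it the count was 5. In the mutant the genes were Slc25a40 and Slc25a14. Slc25a40 was the 1 carrier at least 2-fold above input in both constructs, and 9 carriers were at least 2-fold below input in both. The share of all genes past 2-fold in both constructs was not counted, so neither count is set against a background. With a pseudocount of 1, 4 carriers were at least 2-fold above input and 5 below with Lin28b-WT (3.75% and 10.9% of all genes). With Lin28b-MU, 0 were at least 2-fold above and 8 below (3.23% and 22.7% of all genes). With each table centred on its median, 11 were at least 2-fold above that median and 6 below with Lin28b-WT (13.5% and 14.1% of all genes). With Lin28b-MU, 6 were at least 2-fold above and 6 below (17.4% and 22.5% of all genes).

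**Figure D1:**
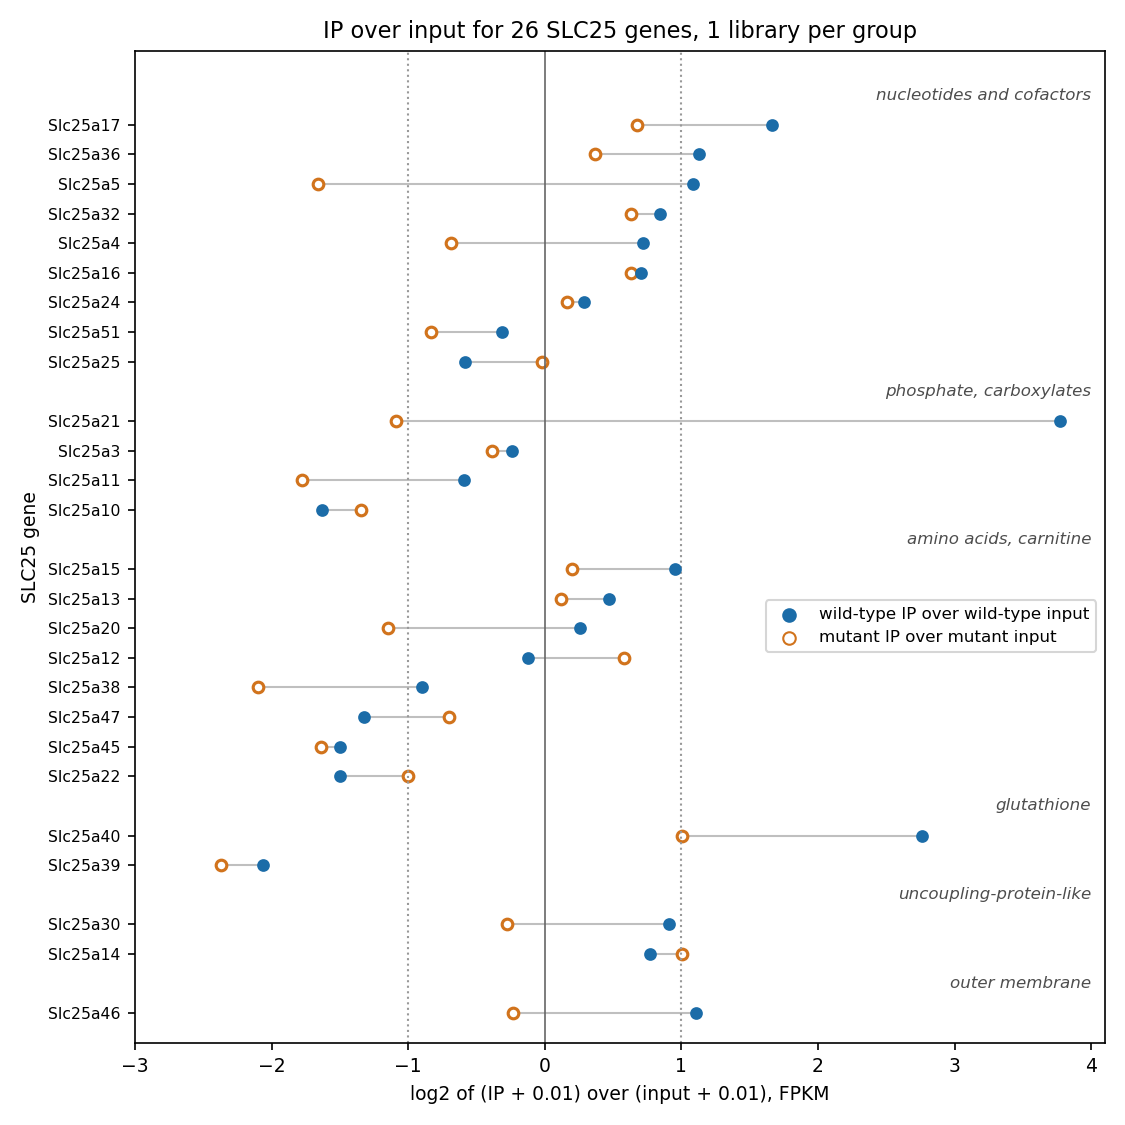
Ratio of IP over input (x axis, log2) for the 26 SLC25 genes whose level in each library is given in the text (rows, by transported substrate), with filled points for the wild type, open points for the mutant and dotted lines at 2-fold. These genes spread from −2.07 to 2.76 for the wild type, apart from Slc25a21, whose WT input was listed at 0, and from −2.37 to 1.01 for the mutant.

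The carriers of glutathione, the main thiol antioxidant, stood in wide contrast. Slc25a40 (chr5:8422850-8454797, plus strand, GRCm38) stood at 6.74 FPKM in the WT IP, against 0.983 in the WT input, and at 5.08 in the MU IP, against 2.52 in the MU input. Its recovery was thus 6.79-fold with Lin28b-WT and 2.01-fold with Lin28b-MU. Its paralogue Slc25a39 (chr11:102402985-102407946, minus strand), which imports glutathione into mitochondria, stood at 33.3 FPKM in the WT IP, against 139 in the WT input, and at 23.1 in the MU IP, against 119 in the MU input. Slc25a39 was therefore 4.19-fold below input with Lin28b-WT and 5.17-fold below with Lin28b-MU. On the length-scaled level, Slc25a39 was far more abundant in both inputs than Slc25a40, and the paralogues lay near opposite ends of the family.

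Set against the other 38 carriers, Slc25a40 had the highest ratio with Lin28b-MU and the highest with Lin28b-WT among carriers above 0 in all 4 libraries. Its wild-type log2 ratio of 2.76 compared with a median of −0.25 for the others, and the next of them at 1 FPKM or more in both tables was Slc25a17 at 1.66. Its mutant ratio of 1.01 compared with a median of −0.69, and Slc25a14 lay beside it at 1.01. Among all 13478 genes, 150 (1.11%) had a wild-type ratio at least as high as that of Slc25a40, 794 (5.89%) a mutant ratio at least as high, and 1614 a difference at least as large. With a pseudocount of 1 its log2 ratios were 1.96 with Lin28b-WT and 0.79 with Lin28b-MU, so that its mutant ratio fell short of 2-fold.

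**Figure D2:**
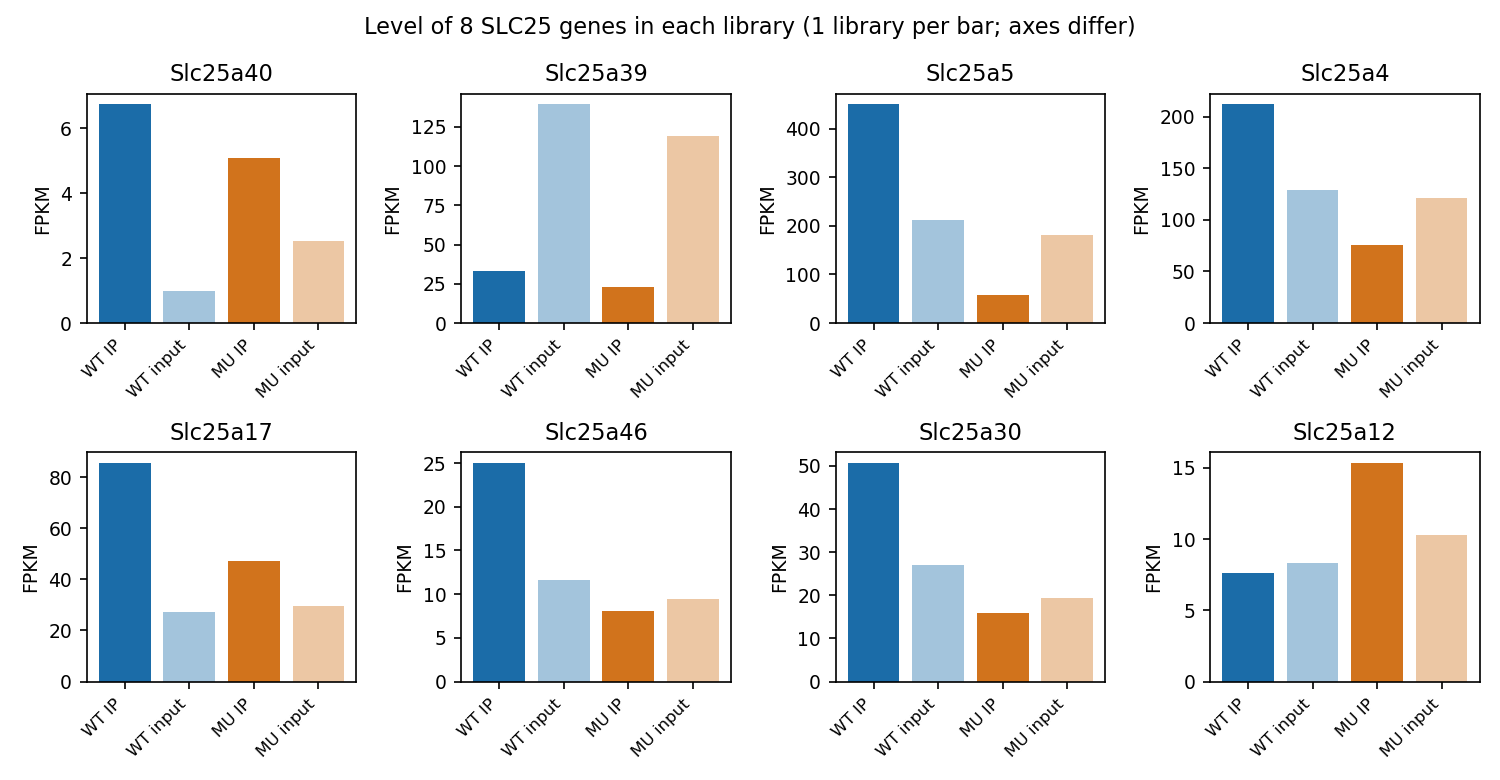
Level in FPKM (y axis, a scale of its own in each panel) of 8 SLC25 genes in the wild-type (WT) IP and input and the mutant (MU) IP and input, 1 library per bar. Slc25a40 was above its input in both IPs and Slc25a39 below, while Slc25a5, Slc25a4, Slc25a46 and Slc25a30 were above input in the WT IP and below it in the MU IP.

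Among 13 carriers of nucleotides and cofactors, 3 were at least 2-fold above input with Lin28b-WT (23.1%, against 7.74% of all genes) and 1 below (7.69%, against 21.7%). With Lin28b-MU, 0 were above, against 5.99% of all genes, and 2 below (15.4%, against 37.1%). The ADP/ATP carriers exchange matrix ATP for cytosolic ADP and are among the most abundant proteins of the inner membrane. Slc25a5, the isoform of proliferating cells (chrX:36795651-36798807, plus strand), stood at 450 FPKM in the WT IP, against 213 in the WT input, and at 57.6 in the MU IP, against 182 in the MU input. Slc25a4, the isoform of heart and muscle (chr8:46206797-46211284, minus strand), stood at 212 FPKM in the WT IP, against 129 in the WT input, and at 75.8 in the MU IP, against 122 in the MU input. Both genes lay above input with Lin28b-WT and below it with Lin28b-MU, with log2 ratios of 1.08 (WT) and −1.66 (MU) for Slc25a5 and 0.72 (WT) and −0.68 (MU) for Slc25a4. These paralogues are similar in sequence, and Slc25a5 has processed pseudogene copies in the mouse genome, so reads may be divided among loci and their levels are uncertain to that extent.

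Slc25a17, a carrier of the peroxisomal membrane that handles coenzyme A and related cofactors, was above input in both constructs. It stood at 85.7 FPKM in the WT IP, against 27.1 in the WT input, and at 47.1 in the MU IP, against 29.5 in the MU input. The pyrimidine nucleotide carrier gene Slc25a36 stood at 7.63 FPKM in the WT IP, against 3.48 in the WT input, and at 6.88 in the MU IP, against 5.34 in the MU input. Both passed 2-fold with Lin28b-WT alone, Slc25a17 at 3.16-fold (WT) and 1.60-fold (MU) above input and Slc25a36 at 2.19-fold (WT) and 1.29-fold (MU). The folate and FAD carrier gene Slc25a32 had 7.36 FPKM in the WT IP, against 4.09 in the WT input, and 5.30 in the MU IP, against 3.42 in the MU input. Slc25a16, a gene linked to mitochondrial coenzyme A, had 11.1 FPKM in the WT IP, against 6.85 in the WT input, and 7.57 in the MU IP, against 4.88 in the MU input. Both were above input in each construct and under 2-fold.

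The ATP-Mg/phosphate carriers, which adjust the adenine nucleotide pool of the matrix, stayed nearer to their inputs. Slc25a24 stood at 101 FPKM in the WT IP, against 83.1 in the WT input, and at 74.0 in the MU IP, against 66.0 in the MU input. Slc25a25 stood at 3.16 FPKM in the WT IP, against 4.73 in the WT input, and at 4.99 in the MU IP, against 5.06 in the MU input. The NAD carrier gene Slc25a51 stood at 18.5 FPKM in the WT IP, against 23.0 in the WT input, and at 9.04 in the MU IP, against 16.1 in the MU input. None of these genes passed 2-fold in either construct. In the same class Slc25a23, Slc25a33 and Slc25a42 were below input in both constructs and under 2-fold.

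The carriers of phosphate and carboxylates, which feed oxidative phosphorylation and link the citric acid cycle to the cytosol, were mostly below input. Of 5 such genes, 1 (Slc25a21) was at least 2-fold above input and 2 below with Lin28b-WT, and 0 above and 4 below with Lin28b-MU, too few to set against the all-gene shares of 7.74% above and 21.7% below (WT) and 5.99% above and 37.1% below (MU). The phosphate carrier gene Slc25a3 stood at 110 FPKM in the WT IP, against 130 in the WT input, and at 113 in the MU IP, against 147 in the MU input. The oxoglutarate carrier gene Slc25a11 stood at 19.3 FPKM in the WT IP, against 29.1 in the WT input, and at 10.3 in the MU IP, against 35.4 in the MU input. Slc25a3 was near input in both constructs, whereas Slc25a11 was 1.51-fold below input with Lin28b-WT and 3.43-fold below with Lin28b-MU. The dicarboxylate carrier gene Slc25a10 stood at 10.1 FPKM in the WT IP, against 31.1 in the WT input, and at 12.1 in the MU IP, against 30.9 in the MU input, and it was the carrier of this class farthest below input with Lin28b-WT. The citrate carrier gene Slc25a1, which exports citrate for fatty acid synthesis, was 2.41-fold below with Lin28b-WT and 2.40-fold below with Lin28b-MU. The oxodicarboxylate carrier gene Slc25a21 stood at 0.127 FPKM in the WT IP and was listed at 0 in the WT input, and it stood at 0.815 in the MU IP, against 1.74 in the MU input, so its wild-type ratio is set by the pseudocount and no fold is given.

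Among 11 carriers of amino acids, carnitine and related solutes, 0 were at least 2-fold above input in either construct, and 5 were below with Lin28b-WT and 6 with Lin28b-MU. The shares of all genes were 7.74% above and 21.7% below for the WT IP, and 5.99% above and 37.1% below for the MU IP. The aspartate/glutamate carriers, parts of the malate-aspartate shuttle, diverged. Slc25a12 stood at 7.65 FPKM in the WT IP, against 8.34 in the WT input, and at 15.3 in the MU IP, against 10.3 in the MU input. Slc25a13 stood at 33.7 FPKM in the WT IP, against 24.3 in the WT input, and at 21.4 in the MU IP, against 19.7 in the MU input. Slc25a12 was the 1 carrier below input with Lin28b-WT and above it with Lin28b-MU, with log2 ratios of −0.12 (WT) and 0.58 (MU), while Slc25a13 was above in both, at 0.47 (WT) and 0.12 (MU).

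The ornithine carrier gene Slc25a15, a component of the urea cycle, stood at 13.9 FPKM in the WT IP, against 7.21 in the WT input, and at 5.40 in the MU IP, against 4.69 in the MU input. The carnitine/acylcarnitine carrier gene Slc25a20, needed for import of fatty acids, stood at 11.7 FPKM in the WT IP, against 9.80 in the WT input, and at 4.29 in the MU IP, against 9.52 in the MU input. Slc25a15 was 1.93-fold above input with Lin28b-WT, just under the threshold, and Slc25a20 was near input with Lin28b-WT and 2.22-fold below with Lin28b-MU. Slc25a38, a glycine carrier needed for haem synthesis, stood at 1.34 FPKM in the WT IP, against 2.51 in the WT input, and at 0.850 in the MU IP, against 3.67 in the MU input. Its ratio of −2.10 with Lin28b-MU was the lowest there after that of Slc25a39.

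The glutamate carrier gene Slc25a22 stood at 1.00 FPKM in the WT IP, against 2.85 in the WT input, and at 2.67 in the MU IP, against 5.36 in the MU input. Slc25a45 stood at 2.85 FPKM in the WT IP, against 8.07 in the WT input, and at 0.651 in the MU IP, against 2.05 in the MU input. Slc25a47 stood at 0.799 FPKM in the WT IP, against 2.01 in the WT input, and at 0.995 in the MU IP, against 1.62 in the MU input. All 3 were below input in both constructs, Slc25a47 by under 2-fold with Lin28b-MU, and at such levels a few reads can move a ratio.

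In the smaller classes, neither mitoferrin gene was above input. Slc25a37 and Slc25a28, which import iron for haem and iron-sulphur clusters, had log2 ratios of −0.05 and −1.06 with Lin28b-WT and −0.42 and −1.63 with Lin28b-MU. Of the genes related to uncoupling proteins, Slc25a30 stood at 50.7 FPKM in the WT IP, against 27.0 in the WT input, and at 16.0 in the MU IP, against 19.3 in the MU input. Slc25a14 stood at 2.80 FPKM in the WT IP, against 1.64 in the WT input, and at 4.05 in the MU IP, against 2.01 in the MU input. Slc25a30 was 1.88-fold above input with Lin28b-WT and 1.21-fold below with Lin28b-MU, and Slc25a14 was 1.71-fold (WT) and 2.01-fold (MU) above. Slc25a46, an outer-membrane member that acts in mitochondrial dynamics, stood at 25.02 FPKM in the WT IP, against 11.6 in the WT input, and at 8.10 in the MU IP, against 9.49 in the MU input. It was 2.15-fold above input with Lin28b-WT and 1.17-fold below with Lin28b-MU.

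The 13 members without values for each library here, among them Slc25a1, Slc25a23, Slc25a26, Slc25a28, Slc25a37 and Slc25a44, were all below input in both constructs. They remained after members past 2-fold above input, members with a peak and those at the extremes were described, so their low position follows in part from that choice. Their log2 ratios ran between −2.15 and −0.05 with Lin28b-WT and between −1.63 and −0.36 with Lin28b-MU. At least 2-fold below input were 5 of them with Lin28b-WT and 7 with Lin28b-MU, where the shares of all genes were 21.7% and 37.1%. Their levels were modest, with a median of 1.78 FPKM in the WT IP, against 1.84 in the WT input, and 2.30 in the MU IP, against 4.02 in the MU input. The lowest wild-type ratio, that of the basic amino acid carrier gene Slc25a29, rested on 0.0644 FPKM in the IP, against 0.319 in the input.

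The comparison of the constructs asked which mRNAs the wild-type protein recovered beyond its RNA-binding mutant. In 10 of the 39 carriers (25.6%) the wild-type log2 ratio exceeded the mutant ratio by at least 1, against 26.1% of all genes and 22.1% of protein-coding genes, a share near the background. The converse difference was seen in 0 carriers, against 7.37% of all genes and 5.72% of protein-coding genes, the nearest being −0.97 for the sparsely measured Slc25a29 and −0.70 for Slc25a12. The median difference was 0.37 over the carriers and 0.32 over all genes, and 29 carriers (74.4%) had a difference above 0, against 63.2% of all genes. After each table was centred on its median, 6 carriers had a difference of at least 1 and 2, Slc25a12 and Slc25a29, of at most −1, against 18.6% and 12.9% of all genes.

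**Figure D3:**
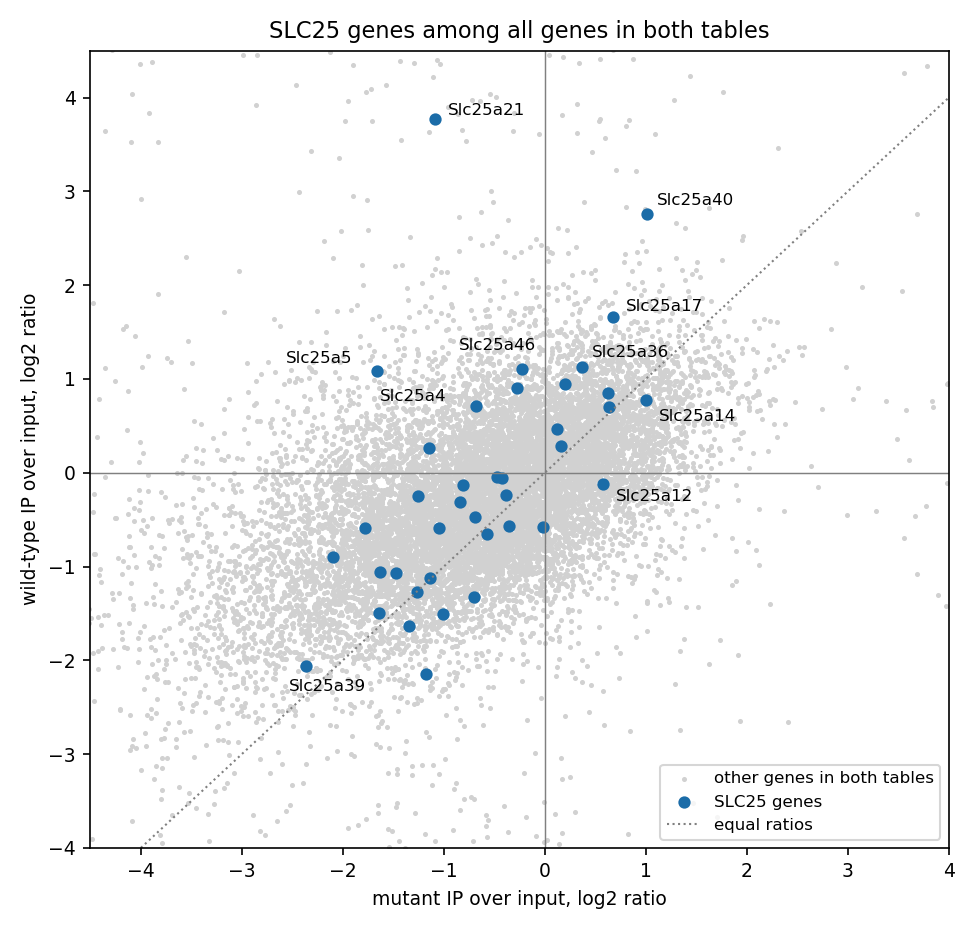
Wild-type ratio (y axis) against mutant ratio (x axis), both log2 of IP over input, for the 39 SLC25 genes (blue points) and the other genes in both tables (grey; genes beyond the axes are not drawn), with a dotted line of equal ratios. Slc25a40 lies at 2.76 (WT) and 1.01 (MU), Slc25a5 at 1.08 (WT) and −1.66 (MU) and Slc25a39 at −2.07 (WT) and −2.37 (MU).

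The libraries that set the difference were not the same in every gene. For Slc25a5, with a difference of 2.74, the WT IP lay 2.97 above the MU IP on the log2 scale and the WT input 0.22 above the MU input. Slc25a4, Slc25a20, Slc25a46 and Slc25a30 were alike in this, with differences of 1.40, 1.41, 1.33 and 1.18, IP levels 1.49, 1.45, 1.63 and 1.66 apart, and inputs 0.09, 0.04, 0.29 and 0.48 apart. For Slc25a40, with a difference of 1.76, the WT IP lay only 0.41 above the MU IP, and the WT input lay −1.35 from the MU input. Slc25a43, a carrier with no assigned substrate, had a difference of 1.01, with IP levels −0.12 apart and inputs −1.13 apart. Of the 10 genes, 5 had a WT IP at least 2-fold above the MU IP. In 1, Slc25a21, the WT IP was at least 2-fold below, at 0.127 FPKM against 0.815. The 10 were picked on a difference that includes the IP levels, so these counts follow in part from that choice. Among all 39 carriers, a WT IP at least 2-fold above the MU IP was seen in 9, against 27.3% of all genes. A WT IP at least 2-fold below was seen in 4, against 10.6%. Inputs were within 2-fold of each other in 7 of the 10, the exceptions being Slc25a40, Slc25a43 and Slc25a21. The levels of the constructs stand in separate tables and how they were scaled to each other is not known, which limits such comparisons.

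**Figure D4:**
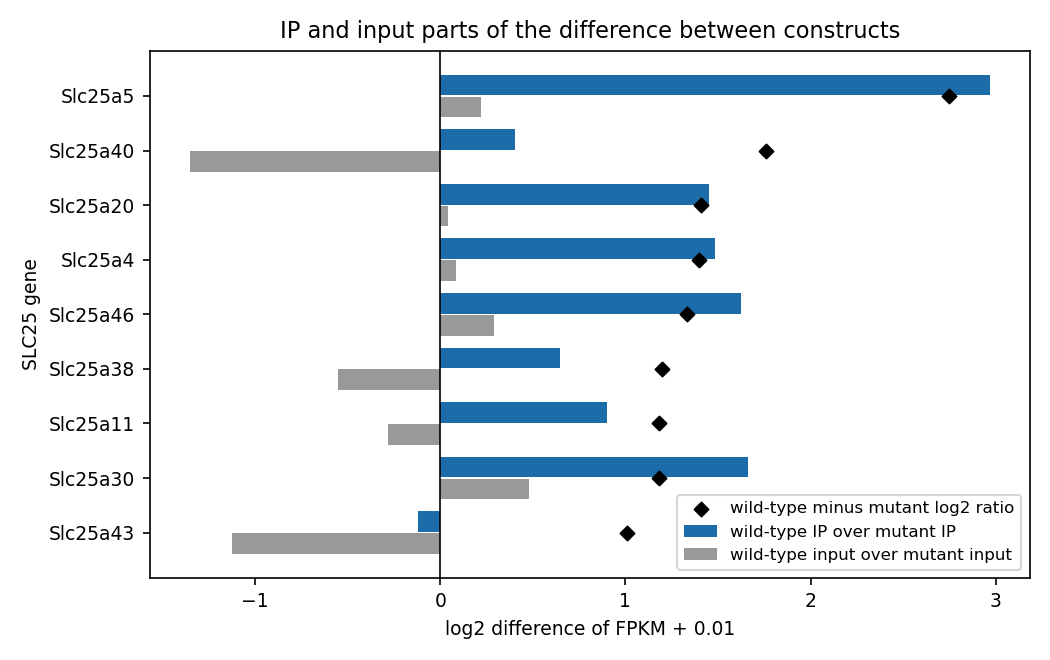
Difference between the constructs for the 9 SLC25 genes with a wild-type minus mutant log2 ratio of at least 1 and a WT input above 0 (diamonds), beside the log2 level of the WT IP over the MU IP (blue bars) and of the WT input over the MU input (grey bars). For Slc25a5 the bar of the IPs reaches 2.97, whereas for Slc25a40 the bar of the inputs reaches −1.35.

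The inputs were within 2-fold of each other for 34 of the 39 carriers (87.2%), near the 83.0% of all genes, with a median log2 difference of −0.05 of wild type over mutant. Slc25a45 was the exception on the high side, at 8.07 FPKM in the WT input, against 2.05 in the MU input. On the low side were Slc25a40, Slc25a43, Slc25a33 and Slc25a21.

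Ratios within the family went with the span of the gene, introns included. Of the 9 carriers with spans up to 10 kb, 1 was at least 2-fold above input with Lin28b-WT and 5 below, against 0 above and 7 below with Lin28b-MU. Protein-coding genes of that span also lay low, with 3.49% above and 40.6% below for the WT IP, 1.56% above and 65.2% below for the MU IP, and medians of −0.79 (WT) and −1.44 (MU). Of the 15 with spans above 30 kb, 5 were at least 2-fold above and 0 below with Lin28b-WT, and 2 above and 2 below with Lin28b-MU. The 5 included Slc25a21, the longest at 485 kb, whose WT input was listed at 0. Among protein-coding genes of that span, 8.62% were above and 6.72% below for the WT IP and 10.5% above and 12.7% below for the MU IP, with medians of 0.05 (WT) and 0.05 (MU). The median log2 ratio of the carriers was −1.27 with Lin28b-WT and −1.35 with Lin28b-MU for the short genes, and 0.29 (WT) and −0.02 (MU) for the long genes. Across the 39 genes, which share 4 libraries, Spearman's rho between span and ratio was 0.54 with Lin28b-WT and 0.65 with Lin28b-MU, against 0.38 and 0.54 across protein-coding genes. Among the 35 carriers at 1 FPKM or more in the higher library of both tables, rho was 0.52 (WT) and 0.70 (MU). The ADP/ATP carriers departed from this order, since Slc25a5 spans 3.16 kb and Slc25a4 4.49 kb and both were above input with Lin28b-WT. Slc25a40 spans 31.9 kb and Slc25a39 4.96 kb, so that pair differed in span as well, and the part of span in their contrast was not tested.

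The peak lists of the authors gave positions within the genes. A peak was given to a gene when its summit lay inside the gene on its strand. Peak folds are those that the authors deposited. By this rule 15 of the 39 carriers (38.5%) held a wild-type peak, against 25.1% of all genes in both tables and 29.4% of protein-coding genes, and 7 (17.9%) held a mutant peak, against 18.6% and 21.9%. There were 36 wild-type peaks and 13 mutant peaks in the family, although the mutant list was the longer, with 15931 peaks against 11912 in the wild-type list. In 6 carriers both lists had a peak, in 9 the wild-type list alone, in 1 (Slc25a12) the mutant list alone, and in 23 neither. Over all genes in both tables, 13.0% held a peak in both lists, 12.1% in the wild-type list alone and 5.57% in the mutant list alone. At a stricter −log10 q of 10, 12 of the 39 carriers held a wild-type peak, against 19.2% of all genes, and 4 a mutant peak, against 13.9%. The family then held 26 wild-type and 7 mutant peaks, with 4 wild-type and 4 mutant peaks shared.

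Carriers with a wild-type peak had IP levels between 2.80 and 450 FPKM (median 25.02), and those without had levels between 0.0644 and 33.3 (median 3.001). For mutant peaks the medians were 15.3 FPKM with and 5.19 without. Peak calling needs reads, so a missing peak in a gene at a low level does not show that it was not recovered.

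Slc25a40 held the wild-type peak of the highest fold in the family, of 203 bases at chr5:8447132-8447334 with a fold of 15.7. By the authors' −log10 q, at 28.0, it was not the highest, since a Slc25a5 peak reached 317. The mutant list had a peak at nearly the same place, chr5:8447135-8447334, with a fold of 8.46, and both summits lay 7573 bases from the annotated 3′ end of the gene. A second shared region lay near that end, where the wild-type peak of 1559 bases at chr5:8453104-8454662 had a fold of 8.09 and the mutant peak of 525 bases at chr5:8453139-8453663 a fold of 3.89. That mutant peak had a −log10 q of 4.41, under the stricter cutoff of 10. A wild-type peak at chr5:8443465-8443727, with a fold of 9.45, had no mutant counterpart. Slc25a39, at a far higher input level, held no peak in either list.

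Slc25a17 held the most peaks, 7 with Lin28b-WT and 3 with Lin28b-MU. Its strongest, at chr15:81329100-81329310, had a fold of 11.6 and no mutant counterpart, whereas that at chr15:81344142-81344346, with a fold of 5.50, had its counterpart with a fold of 7.36. In Slc25a5, 3 wild-type peaks with folds of 3.15, 4.19 and 2.88 lay along the gene, and the mutant list had none. Slc25a30 held 4 wild-type peaks, the strongest at chr14:75760187-75760993 with a fold of 7.87, and Slc25a15 held 3, the strongest at chr8:22375686-22375939 with a fold of 6.88, both genes without a mutant peak. Slc25a36, Slc25a16 and Slc25a4 held 2 wild-type peaks each, and Slc25a3, Slc25a46 and Slc25a51 held 1 each, all again without a mutant peak. The Slc25a16 peaks, with −log10 q of 2.82 and 4.07, and the Slc25a51 peak, at 8.98, were under the stricter cutoff of 10. Slc25a13, Slc25a24, Slc25a32 and Slc25a14 held peaks in both lists. The peaks of Slc25a12, at chr2:71274868-71275414 and chr2:71308114-71308315 with folds of 2.47 and 4.72, were in the mutant list alone, and its ratio was likewise the higher with Lin28b-MU.

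**Figure D5:**
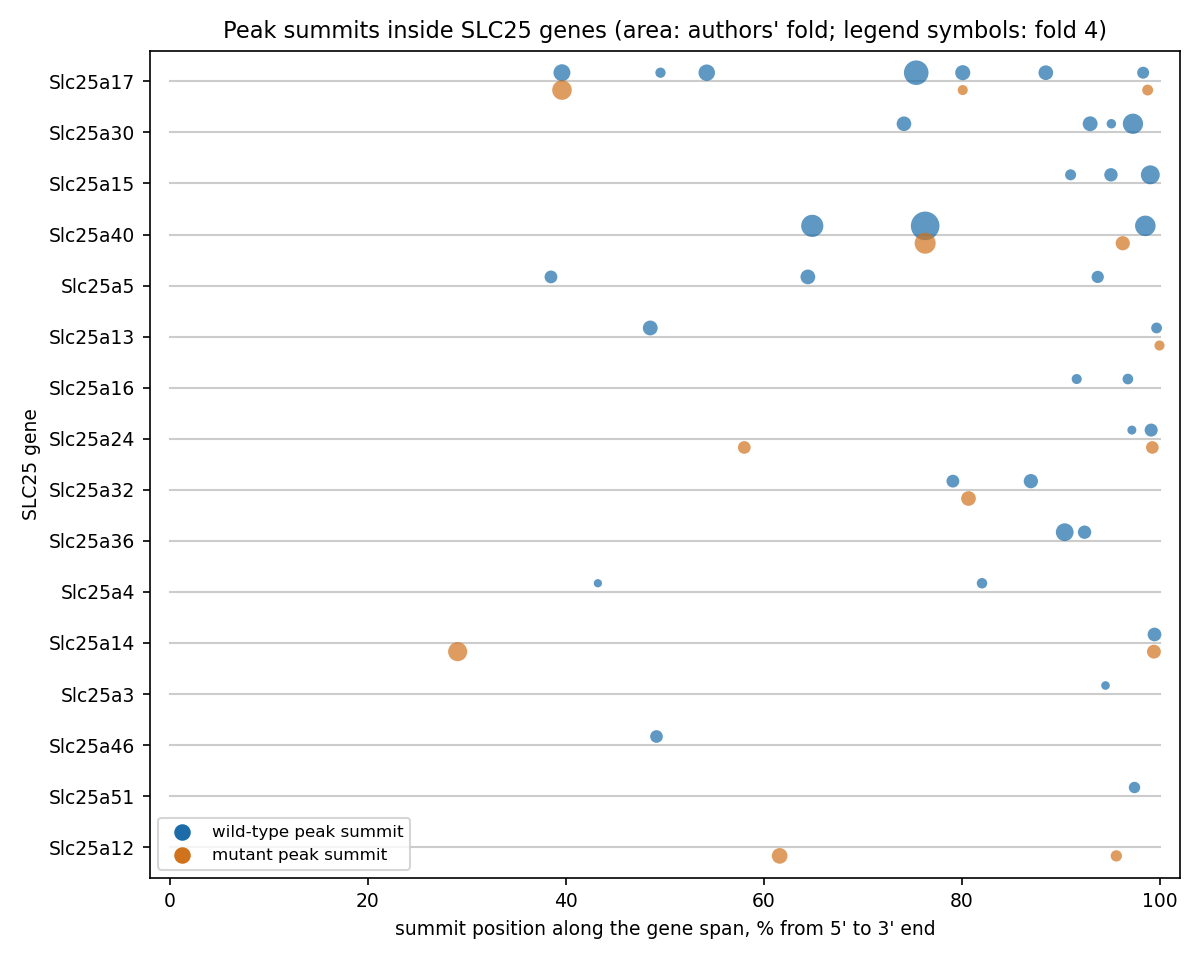
Summits of wild-type peaks (blue, above each line) and mutant peaks (orange, below) along the span of the 16 SLC25 genes that held a peak, as a percentage from the 5′ to the 3′ end, with the area of a point in proportion to the authors' fold. Of the 36 wild-type summits, 19 lie in the last 10% of the span, and the largest point is the Slc25a40 peak with a fold of 15.7.

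The share of carrier peaks with a counterpart in the other list lay below that of all protein-coding genes for the wild-type list and above it for the mutant list. Of the 36, 9 (exact Clopper-Pearson 95% interval 12.1% to 42.2%) overlapped a mutant peak, against 5767 of 11425 (50.5%, 49.6 to 51.4) in all protein-coding genes. Of the 13 mutant peaks, 9 (69.2%, 38.6 to 90.9) had a wild-type counterpart, against 37.1% in all protein-coding genes. With a reciprocal overlap of at least 50% required, 6 wild-type and 6 mutant peaks were shared. In the last 10% of the span lay 52.8% of the wild-type summits (interval 35.5 to 69.6), against 37.2% in all protein-coding genes, and 46.2% of the mutant summits (19.2 to 74.9), against 29.5%. These intervals cover counting error alone, and peaks of a gene are not independent of each other. The nearest summits stood 198 bases from the annotated 3′ end with Lin28b-WT (Slc25a5) and 216 in the mutant (Slc25a13). Exons and untranslated regions were not assigned here, and no member peak overlapped another gene of the tables on its strand or another RefSeq gene.

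Other genes of mitochondrial transport were read in the same way from 4 lists, whose counts stand against the same all-gene shares of 7.74% above and 21.7% below (WT) and 5.99% above and 37.1% below (MU). Of the SLC25 relatives with other names, Mtch1 and Mtch2 were listed in both tables, and Mtch2, an outer-membrane protein insertase, stood at 62.9 FPKM in the WT IP, against 44.4 in the WT input, and at 16.4 in the MU IP, against 48.2 in the MU input. The list for the TIM22 import route, which inserts the carriers, held 13 genes. These included the outer-membrane genes Tomm20, Tomm22, Tomm40 and Tomm70a, and also Timm8a1, Timm8b and Timm13, so its counts are not of carrier insertion alone. Of the 13, 1 was at least 2-fold above input with Lin28b-WT and 3 below, against 0 above and 7 below with Lin28b-MU. That gene was Timm10, a small chaperone of the intermembrane space, at 13.8 FPKM in the WT IP, against 6.30 in the WT input, and at 3.28 in the MU IP, against 9.58 in the MU input. Its difference of 2.68 was close to that of Slc25a5.

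Of 20 other genes for transport across mitochondrial membranes, 2 were at least 2-fold above input with Lin28b-WT and 3 below, against 0 above and 10 below with Lin28b-MU. Among those above input was Micu2, a regulator of the calcium uniporter, with log2 ratios of 1.43 (WT) and −0.15 (MU). A list of 18 genes held Prdx3, Prdx5 and Afg3l2 beside genes of glutathione synthesis and use. Of these 18, 0 were at least 2-fold above input and 6 below with Lin28b-WT, and 1 above and 9 below with Lin28b-MU. The gene at least 2-fold above input was Slc7a11, the cystine transporter, at 41.8 FPKM in the MU IP, against 19.3 in the MU input. With Lin28b-WT it was also above input, by under 2-fold, at 5.24 FPKM in the WT IP, against 3.31 in the WT input. The glutathione peroxidase gene Gpx4 had log2 ratios of −2.92 with Lin28b-WT and −3.65 with Lin28b-MU, lower in both than Slc25a39. The median ratios with Lin28b-WT were −0.36 for the other transport genes, −0.40 for the import list and −0.50 for the glutathione list, against −0.28 over all genes. With Lin28b-MU they were −0.95, −1.47 and −1.09 in the same order of lists, against −0.59 over all genes.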

How the data were processed

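RIP-seq libraries were 1 each of wild-type IP, wild-type input, mutant IP and mutant input. The submitters' processing notes name bedtools, HOMER 4.11.1, MACS2 2.2.7.1 and HISAT2 2.1.0, and the builds mm10 and GRCm38, with no role for any. Levels deposited by the authors were read as FPKM from the values, since the file headers name no unit, and the depth of each library is unknown. The gene tables also hold log2 ratios, p-values and q-values, per the file headers. The deposited log2 ratio matched log2((IP + 0.01)/(input + 0.01)) within 1.57e-09. Each deposited peak carries a display score, its fold at the summit, a p-value and a q-value as −log10, and the summit's offset. No source used here names the control for peak calling.

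Tables were joined by gene identifier with pandas 2.3.3 in Python 3.11.15. A gene was counted past the threshold at 2-fold, with no test. Calling and peak assignment were tested on simulated data. The members and lists were chosen with earlier results of these data known. Values in every library were given for Slc25a40, Slc25a39, members at least 2-fold above input, members with a peak and, among members at 1 FPKM or more in the higher library of both tables, the 5 highest and 5 lowest ratios per construct and the 5 largest differences each way. Alternatives were a pseudocount of 1, centring, a level filter, the authors' q-value under 0.05, and other peak and overlap rules. Peak sequences were not analysed here, and some genes of the lists are not reported here.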

Additional observations from a re-analysis of the deposited data

Results flagged for a closer look

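Slc25a5 had ratios past 2-fold in opposite directions, with log2 ratios of 1.08 with Lin28b-WT and −1.66 with Lin28b-MU. The difference was not tested, since each group was 1 library.

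Inside Slc25a4 the wild-type list held a peak on the strand opposite to the gene, at chr8:46207253-46207485 with an authors' fold of 5.74, and the mutant list held none there. It lay within the position of the wild-type peak on the gene's own strand (chr8:46207184-46207783, fold 2.11), and no gene of the tables was listed on the peak's strand.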

How the results depend on the processing

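The number of reads behind each level is unknown and no group had a replicate, so calls near 2-fold, such as the mutant ratios of Slc25a40 and Slc25a14, cannot be separated from measurement error. No paired analysis was possible because each group held 1 library. With each table centred on its median, 11 carriers were at least 2-fold above that median and 6 at least 2-fold below with Lin28b-WT. With Lin28b-MU, 6 were at least 2-fold above and 6 below. A centred difference of at least 1 was seen in 6 carriers and of at most −1 in 2. The median ratios became 0.0536 with Lin28b-WT, a change of sign, and −0.0819 with Lin28b-MU, with a median difference of 0.0577, and Slc25a40 had 3.06 (WT), 1.61 (MU) and a difference of 1.45. With a pseudocount of 1, 5 carriers were at least 2-fold below input with Lin28b-WT and 8 with Lin28b-MU, and 0 were at least 2-fold above with Lin28b-MU. The medians were then −0.14 (WT) and −0.39 (MU) with a difference of 0.31, and Slc25a40 had 1.96 (WT), 0.79 (MU) and a difference of 1.18. Among the 35 carriers at 1 FPKM or more in the higher library of both tables, the wild-type median was −0.14. With an authors' −log10 q of at least 10, 12 carriers held a wild-type peak and 4 a mutant peak. There were then 26 wild-type and 7 mutant peaks, and 4 wild-type and 4 mutant peaks were shared. Adding the authors' q under 0.05 to the 2-fold rule left the counts of carriers at 6 above and 10 below with Lin28b-WT and 2 above and 16 below with Lin28b-MU. Requiring a reciprocal overlap of at least 50% between lists lowered the shared peaks from 9 to 6 in each list. Assigning peaks by any overlap with the gene, or ignoring strand, left 15 carriers with a wild-type peak and 7 with a mutant peak. Ignoring strand gave 37 wild-type and 13 mutant peaks.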
